A study of Mus musculus with 8 samples.

Results

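Interleukin-1 family and inflammatory cytokine genes were followed in cultures of mouse bone marrow cells that were grown with M-CSF alone or driven towards osteoclasts with RANKL. The set held 10 genes, chosen by name: the IL-1 family ligands Il1a, Il1b and Il18, the receptor antagonist Il1rn, the receptors Il1r1, Il1r2 and Il1rap, and the cytokines Il6, Tnf and Il10. All 10 had a transcript cluster among the 19505 genes of the array table, and each had exactly 1. The cells were bone marrow cells of strain C57BL6/J. In the culture called M-CSF they received that factor alone at 50 ng/ml, and in M-CSF+RANKL they also received RANKL at 100 ng/ml. The cultures PSS1-WT and PSS1-LMS received both factors and, 1 day after the treatment, a retroviral vector for PSS1, wild-type or mutant, the phosphatidylserine synthase encoded by Ptdss1. RNA was taken on days 3 and 6, with 1 array for each of the 4 cultures on each day, so no group has a replicate. The labels say nothing of an empty vector in the cultures without PSS1, of the number of animals behind a culture, or of the mutation in PSS1-LMS.

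Myeloid precursors survive and become macrophages under M-CSF, and adding RANKL makes them fuse into osteoclasts, the cells that resorb bone. IL-1 alpha and IL-1 beta signal through a receptor made of IL1R1 and the accessory chain IL1RAP, while the antagonist IL-1RN occupies IL1R1 without signalling and IL1R2 acts as a decoy. IL-1 beta and IL-18 are made as precursors that caspase-1 cuts inside inflammasomes. IL-1 and TNF are known for promoting the formation and activity of osteoclasts, and IL-10 for restraining inflammatory responses of macrophages.

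Signals are given as log2 values in the deposited table. A signal was called above background when it exceeded the brightest of 23 background probe sets on its own array, a limit between 5.54 and 7.13. The limit of 7.13, on the M-CSF array of day 6, came from 1 probe set, and the second-brightest set of any array lay at 5.92 or lower. Signals of different genes were not compared with each other, since probes differ in response. The arrays with RANKL correlated with each other at 0.982 to 0.993 across genes, and with the M-CSF arrays at 0.832 to 0.889. The transgene was read from Ptdss1, at 17.50 to 18.91 on the 4 arrays of the PSS1 cultures and at 9.56 to 10.36 on the 4 others. All 8 osteoclast markers tested were above background on all 6 arrays with RANKL, against 1 and 2 on the M-CSF arrays of days 3 and 6. All 6 macrophage markers in the table were above background on both M-CSF arrays, and 4 or 5 of them on each array with RANKL. Markers of B cells, mast cells and basophils, and stromal cells were within background on all 8 arrays. Of 10 neutrophil markers in the table, 6 or 7 were above background on each array of day 3 and 1 or 2 on each array of day 6. Of 7 dendritic cell markers 0 to 4 were above background on an array, and of 6 T and NK cell markers only Cd4 was.

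The promoters of the genes whose signals moved most are shown first, with that of Il6 as a gene that stayed within background. Each line is the 250 bases before an annotated start, written 5′ to 3′ on the strand of the gene, from RefSeq on GRCm38.p6. RefSeq windows matched 9 of the 10 genes. Capitals mark matches, on either strand, to the AP-1 motif TGANTCA, the PU.1 core GAGGAA and the NF-kB consensus. Il1rn has 3 annotated starts, and the array gives 1 value per gene that cannot be assigned to a start. The 2 downstream windows of Il1rn overlap, and only the last is shown.
Il1rn, most upstream start (chr2:24336610-24336859, + strand): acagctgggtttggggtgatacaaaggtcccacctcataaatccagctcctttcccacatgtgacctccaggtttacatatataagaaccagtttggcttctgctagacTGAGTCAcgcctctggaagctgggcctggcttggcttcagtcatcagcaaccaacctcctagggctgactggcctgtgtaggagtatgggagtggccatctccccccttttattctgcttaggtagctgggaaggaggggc
Il1rn, most downstream start (chr2:24345121-24345370, + strand): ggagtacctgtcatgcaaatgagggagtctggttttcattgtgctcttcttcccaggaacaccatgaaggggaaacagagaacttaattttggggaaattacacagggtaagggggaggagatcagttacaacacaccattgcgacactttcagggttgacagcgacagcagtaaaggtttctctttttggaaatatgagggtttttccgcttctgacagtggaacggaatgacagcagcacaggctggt
Il18 (chr9:50554450-50554699, + strand): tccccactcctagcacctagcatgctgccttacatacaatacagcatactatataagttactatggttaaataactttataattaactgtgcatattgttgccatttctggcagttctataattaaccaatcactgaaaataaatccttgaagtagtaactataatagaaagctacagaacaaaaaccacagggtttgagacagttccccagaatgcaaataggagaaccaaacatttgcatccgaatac
Tnf (chr17:35202008-35202257, - strand): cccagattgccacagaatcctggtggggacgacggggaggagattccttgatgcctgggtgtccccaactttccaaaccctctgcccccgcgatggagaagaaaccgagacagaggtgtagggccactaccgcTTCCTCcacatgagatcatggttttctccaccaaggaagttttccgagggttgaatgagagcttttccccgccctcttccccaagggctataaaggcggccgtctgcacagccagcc
Il6 (chr5:30012864-30013113, + strand): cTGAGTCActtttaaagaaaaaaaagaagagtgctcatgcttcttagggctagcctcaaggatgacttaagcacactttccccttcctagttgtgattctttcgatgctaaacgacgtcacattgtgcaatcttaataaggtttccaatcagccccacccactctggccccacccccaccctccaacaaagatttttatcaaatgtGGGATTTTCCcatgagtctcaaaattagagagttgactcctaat

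The most upstream Il1rn window held 1 AP-1 match, which is palindromic and reads on both strands. The downstream Il1rn window and the Il18 window held none of the 3 motifs. The Tnf window held 1 PU.1 match and the Il6 window held an AP-1 and an NF-kB match. Among 32817 promoter windows of equal length, 6.75% held the AP-1 motif, 23.3% the PU.1 core and 3.9% the NF-kB consensus, so these matches are a description of sequence and no more.

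**Figure D1:**
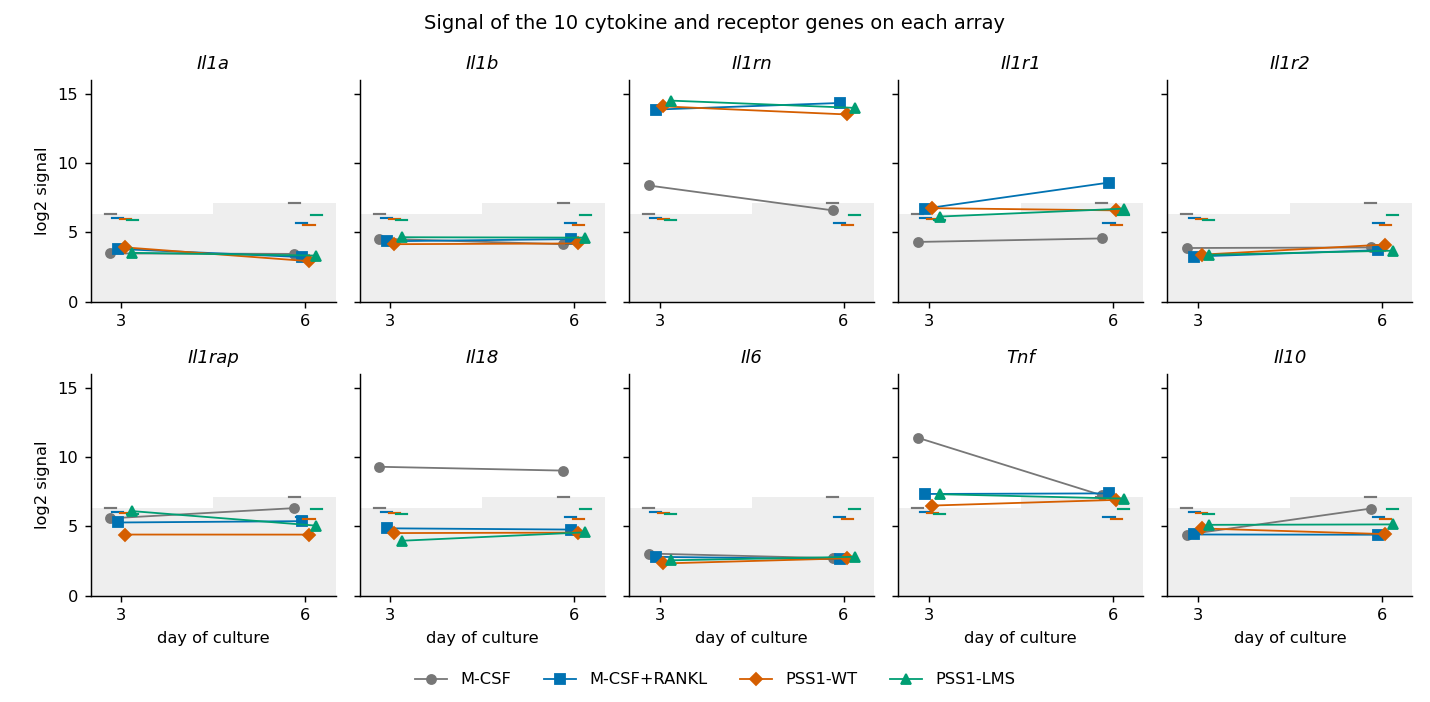
Log2 signal of each of the 10 genes (vertical axis) on days 3 and 6 (horizontal axis), 1 point per array, with colour and shape giving the culture. Short bars mark each array's background limit and the grey band reaches up to the highest limit of that day; Il1rn with RANKL stands far above it, Il18 is above it in M-CSF alone, and Il1a, Il1b, Il1r2, Il6 and Il10 lie under their arrays' limits throughout.

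The first comparison asked how adding RANKL to M-CSF altered these genes. Of the 10 genes, 6 reached the signal required for testing, the 50th percentile of the table at 4.86 on at least 1 array. Il1a, Il1b, Il1r2 and Il6 did not. By limma, with the difference between M-CSF+RANKL and M-CSF averaged over both days, Il1rn and Il1r1 rose, Il18 fell, and Tnf, Il1rap and Il10 did not pass an adjusted p of 0.05. Over all 10871 genes tested, 26.4% were called in this comparison, 14.1% higher and 12.4% lower. The error of this test is how far the culture differences changed between the days, and it covers neither animals nor replicate cultures.

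The signal of Il1rn, the IL-1 receptor antagonist gene, was 8.37 in M-CSF alone on day 3 and 6.58 on day 6. With RANKL it was 13.85 and 14.32, in PSS1-WT 14.08 and 13.50, and in PSS1-LMS 14.49 and 13.97. All 6 arrays with RANKL were thus higher than both arrays without, and they spanned only 1.0 log2 unit among themselves. The M-CSF+RANKL difference was 6.61 ± 0.49 (SE of the limma fit, adjusted p = 7.05e-05). On day 3 this was a 44.5-fold difference. On day 6 it was at least 146-fold, because the M-CSF signal of that day lay under its array's background limit; against the second-brightest background probe set that signal counts as measured and the fold is 214. With all 3 cultures with RANKL set against M-CSF, the difference was 6.56 ± 0.36 (adjusted p = 3.38e-07 by limma). That fit treats the 3 cultures as each other's replicates, although PSS1-WT and PSS1-LMS received a retroviral vector.

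Among the receptors, Il1r1, the signalling receptor of IL-1, was at 4.30 and 4.55 in M-CSF alone on days 3 and 6, under background on both. In M-CSF+RANKL it was above background at 6.71 and 8.58, in PSS1-WT at 6.74 and 6.58, and in PSS1-LMS at 6.13 and 6.70. No array with RANKL overlapped with those without, and the M-CSF+RANKL array of day 6 stood above the other 5. The difference was 3.22 ± 0.48 (adjusted p = 0.00204 by limma). Since the low side was within background, the rise is given as at least 1.91-fold, or at least 3.74-fold against the second-brightest background probe set. With every signal under 7.13 raised to it, the difference was 0.73 and the call was lost (adjusted p = 0.278 by limma); with the floor at 5.92 it was 1.72 (adjusted p = 0.0756).

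The decoy receptor Il1r2 stayed between 3.25 and 4.12 and was above background on no array. The accessory chain Il1rap lay between 4.40 and 6.31, and only the PSS1-LMS array of day 3, at 6.10, exceeded its own limit. Its RANKL difference was -0.62 ± 0.43 (adjusted p = 0.338 by limma). Without the M-CSF array of day 3 it was -1.15 and passed (adjusted p = 0.0227 by limma), and that of Il10 passed likewise (-1.94, adjusted p = 0.000144), with signals within background on both sides in both genes.

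Among the ligands, Il18 showed the reverse order of Il1rn. Its signal was 9.30 and 9.02 in M-CSF alone on days 3 and 6. It was 4.86 and 4.77 in M-CSF+RANKL, 4.52 and 4.55 in PSS1-WT, and 3.96 and 4.57 in PSS1-LMS, and all 6 of these lay within background. The groups did not overlap, and the M-CSF values of both days were close to each other. The RANKL difference was -4.34 ± 0.32 (adjusted p = 6.92e-05 by limma), a fall of at least 9.76-fold on day 3 and at least 10.2-fold on day 6. Over all genes tested, 22.2% had all 6 arrays with RANKL above both M-CSF arrays and 20.8% had them all below. Of the 10 cytokine and receptor genes, Il1rn and Il1r1 were of the first kind and Il18 of the second.

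The IL-1 ligands themselves were not detected. Il1a, which encodes IL-1 alpha, lay between 2.92 and 3.91, and Il1b, which encodes IL-1 beta, between 4.13 and 4.64. Il6, a cytokine of acute inflammation, lay between 2.33 and 3.04. None of the 3 was above background on any of the 8 arrays. When tested with no filter on dim genes, their RANKL differences were 0.05, 0.09 and -0.15, and none passed (adjusted p of 0.96, 0.899 and 0.831 by limma). At signals this low a difference was not detectable, which is not evidence that the transcripts were absent.

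**Figure D2:**
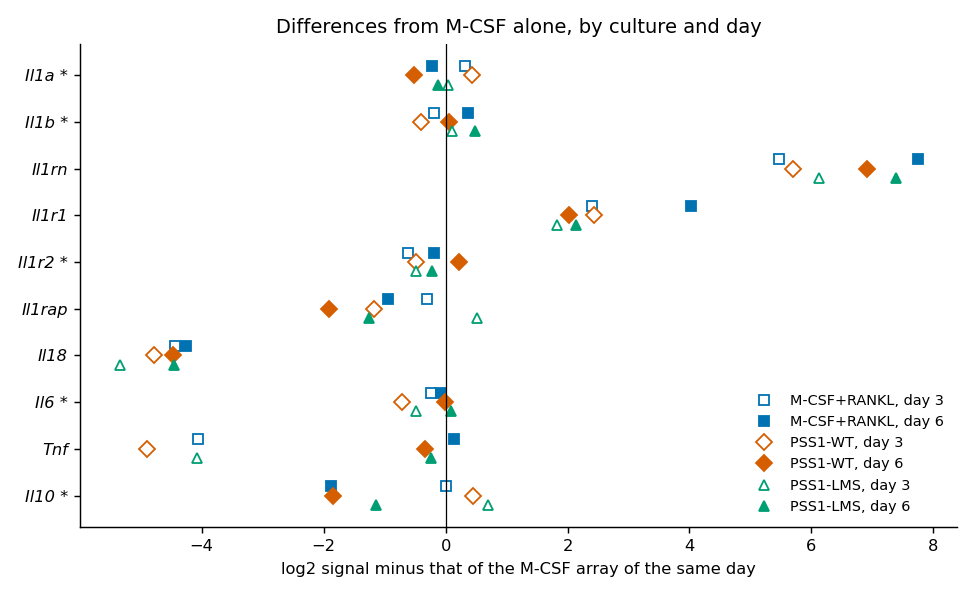
Log2 signal of each gene minus that of the M-CSF array of the same day (horizontal axis), for the 3 cultures with RANKL, with open symbols for day 3 and filled ones for day 6; an asterisk marks genes within background on all 8 arrays. Il1rn and Il1r1 lie to the right and Il18 to the left on both days, and Tnf lies near -4 to -5 on day 3 and near 0 on day 6.

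Whether the RANKL difference changed between days was tested in a limma fit over all 8 arrays, with the 3 cultures with RANKL giving the spread and the lone M-CSF arrays assumed to vary like them. Of the 6 tested genes Tnf, which encodes tumour necrosis factor, changed most. Its signal in M-CSF alone was 11.39 on day 3 and 7.24 on day 6, a 17.7-fold drop. On the arrays with RANKL it was 7.34 and 7.38 in M-CSF+RANKL, 6.5 and 6.91 in PSS1-WT, and 7.32 and 7.0 in PSS1-LMS. The M-CSF array of day 3 alone stood apart, and the other 7 lay within 0.88 of each other. Against M-CSF+RANKL, M-CSF was 16.6-fold higher on day 3, and on day 6 the difference was 0.13 in favour of M-CSF+RANKL. The change of the RANKL difference from -4.34 on day 3 to -0.15 on day 6 was 4.19 ± 0.50 (adjusted p = 0.000186 by limma), and it passed under all 14 alternatives run. None of these left out an M-CSF array, since this test cannot be fitted without one. They therefore do not show how far the change depends on the M-CSF array of day 3. In this test 19.7% of all genes tested were called, 8.49% of them upward and 11.3% downward, as shares of the genes tested.

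Averaged over both days, the Tnf difference of M-CSF+RANKL did not pass (-1.96 ± 0.97, adjusted p = 0.187 by limma). With all 3 cultures with RANKL set against M-CSF it passed (-2.24 ± 0.71, adjusted p = 0.0273), a fit in which 39.5% of genes were called, 20.3% higher and 19.1% lower. Without the M-CSF array of day 3 that difference was -0.15 (adjusted p = 0.774), so the call rests on that array.

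Il1rn also changed between days, by 1.58 ± 0.49 (adjusted p = 0.0391 by limma), as the mean difference with RANKL went from 5.77 on day 3 to 7.35 on day 6. This call was lost in 7 of 14 alternatives, among them raising signals under 7.13 to it (1.03, adjusted p = 0.185), leaving out either M-CSF+RANKL array (adjusted p = 0.0749 for day 3 and 0.0524 for day 6), the PSS1-WT array of day 3 (0.07), or the PSS1-LMS array of day 6 (0.0596), and testing with no filter (0.0618). Il10, which encodes an anti-inflammatory cytokine, had a change of -2.01 ± 0.50 (adjusted p = 0.0142 by limma). Its signal was 6.28 in M-CSF alone on day 6 and between 4.40 and 5.14 on the 7 other arrays. All 8 values were within the background limits, so no fold is given; against the second-brightest background probe set the M-CSF array of day 6 alone was above background. The RANKL difference of Il18 (0.46, adjusted p = 0.527), Il1r1 (0.51, adjusted p = 0.71) and Il1rap (-1.05, adjusted p = 0.338) did not pass for a change between days by limma.

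Markers of monocytes, neutrophils and macrophages are given beside Tnf. Of 4 monocyte markers in the table, all were above background on the M-CSF array of day 3, 1 on that of day 6, 1 or 2 on the day 3 arrays with RANKL and none on those of day 6. The log2 of their summed signal was 12.16 in M-CSF on day 3 and 10.13 on day 6, against 9.09 to 9.48 with RANKL on day 3 and 5.70 to 6.85 on day 6. Such a sum follows its brightest genes, and on the M-CSF array of day 6 only F13a1 (9.945) was above background. The chemokine receptor genes Ccr2 and Cx3cr1, both of monocytes, also had RANKL differences that changed upward between days (2.41, adjusted p = 0.0473, and 3.89, adjusted p = 0.000139, by limma). The other 2 monocyte markers, Ly6c2 (0.30, adjusted p = 0.703) and F13a1 (0.42, adjusted p = 0.653), did not pass that test. Of the 10 neutrophil markers 2 passed it, both opposite in sign to Tnf: S100a8 (-1.97, adjusted p = 0.0185) and Csf3r (-4.64, adjusted p = 0.000107). Of the macrophage markers, Adgre1 (-2.13, adjusted p = 0.0167) and C1qa (-2.44, adjusted p = 0.0019) passed it by limma, also opposite in sign to Tnf. Csf1r, Cd14, Mrc1 and Fcgr1 did not pass it. On day 6 all S100a8 signals lay within background. Csf3r was above background on the M-CSF array of day 6 only, and Cx3cr1 on that of day 3 only. Ccr2 was above background only on the day 3 arrays of M-CSF and M-CSF+RANKL. The granulocyte gene Ngp, picked after its values were seen, was between 13.68 and 14.35 on all 4 arrays of day 3 and between 5.23 and 5.91 on those of day 6. The log2 of the summed neutrophil signal was 14.86 in M-CSF on day 3 and 14.21 to 14.72 with RANKL, against 11.80 and 8.39 to 9.36 on day 6. On the M-CSF array of day 6 only Mmp8 (11.20) and Csf3r (9.96) of the neutrophil markers were above background. The part of monocytes, neutrophils and macrophages in the Tnf values was not tested. Fewer cells of a type and less RNA per cell cannot be told apart in such bulk samples.

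**Figure D3:**
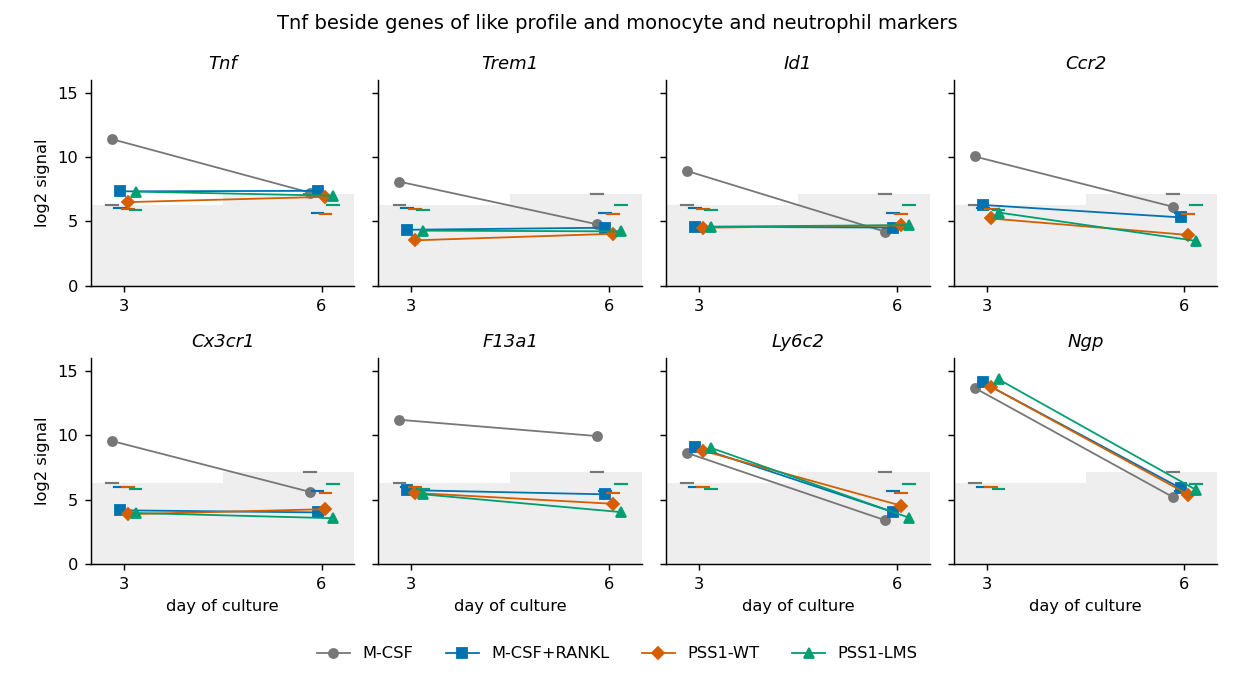
Log2 signal (vertical axis) on days 3 and 6 (horizontal axis) of Tnf, of the 2 genes nearest to it in profile (Trem1 and Id1), of 4 monocyte markers (Ccr2, Cx3cr1, F13a1 and Ly6c2) and of the granulocyte gene Ngp, with bars and band for background as in the plot of the 10 genes. Tnf, Trem1, Id1, Ccr2, Cx3cr1 and F13a1 are highest on the M-CSF array of day 3, and F13a1 stays high in M-CSF on day 6 (9.945). Ly6c2 and Ngp are high on all 4 arrays of day 3 and low on those of day 6.

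The genes with the nearest profiles were found by the root mean square difference over the 8 arrays, after each gene was centred on its own mean. For Tnf they were Trem1, an activating receptor of myeloid cells (0.22 log2 units), and Id1, an inhibitor of helix-loop-helix transcription factors (0.34). For Il1rn they were Igsf11 (0.22), an adhesion molecule of the immunoglobulin superfamily, and Nkain1 (0.44). Igsf11 was at 5.35 and 3.38 in M-CSF and between 10.06 and 11.32 with RANKL. For Il18 they were Hip1 (0.32) and Cysltr1, a leukotriene receptor (0.33), and for Il1r1 Corin, a serine protease (0.36), and Tmem150a (0.40). These are descriptions of likeness over 8 arrays, and the genes near Il1rn, Il1r1 and Il18 share the same split by RANKL. Tmem150a lay within background in M-CSF, on the day 3 arrays with RANKL and on the PSS1-LMS array of day 6. Hip1 lay within background on the day 3 arrays with RANKL and on the PSS1-LMS array of day 6. The likeness to Tnf rests on the M-CSF array of day 3, where Trem1 was at 8.09 and Id1 at 8.92. On every other array Trem1 and Id1 lay within background.

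Lists of related genes, 6 in number with 87 genes in all, were set beside these cytokines, and 61 of them were tested. With RANKL 14 rose, 16 fell and 31 did not pass by limma, where 14.1% of all genes tested were called higher and 12.4% lower, shares against which the counts per list also stand, and the median difference was -0.22 against 0.03 over all genes tested. Differences and folds of list genes are means of both days unless a day is named. For a change of the RANKL difference between days, 2 of the 61 passed upward and 12 downward by limma. Over all genes tested the shares were 8.49% and 11.3%. In the list of inflammasome and cytokine processing genes, 8 of 12 fell and 3 rose, with a median of -2.0. Casp1, whose product cuts the IL-1 beta and IL-18 precursors, was at 14.05 and 13.55 in M-CSF and between 11.69 and 12.18 on the 6 arrays with RANKL. From M-CSF to M-CSF+RANKL this was a 3.88-fold fall (-1.96 ± 0.32, adjusted p = 0.00312 by limma), with no overlap between the arrays with and without RANKL. Nlrp3, an inflammasome sensor, fell from 8.64 and 7.97 to background (-3.64, at least 5.54-fold), and Pycard, the adaptor between sensor and caspase, did likewise (-2.54, at least 3.69-fold). P2rx7, the ATP receptor that triggers this inflammasome, fell 16.8-fold as a mean of both days (-4.07), with differences of -2.61 on day 3 and -5.53 on day 6. Adam17, the protease that sheds TNF, fell 5.62-fold (-2.49). Casp4, an inflammatory caspase that senses lipopolysaccharide, rose 5.54-fold (2.47), and Gsdmd, the pore-forming protein that the caspases cut, rose 4.31-fold (2.11). Mefv, which encodes pyrin, passed upward (1.88) with signals within background on all arrays. Of the 6 macrophage markers 5 fell in the same comparison, among them Cd14 (-4.40), and Csf1r did not pass (-0.73, adjusted p = 0.155 by limma). The part of that shift in these genes was not tested.

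**Figure D4:**
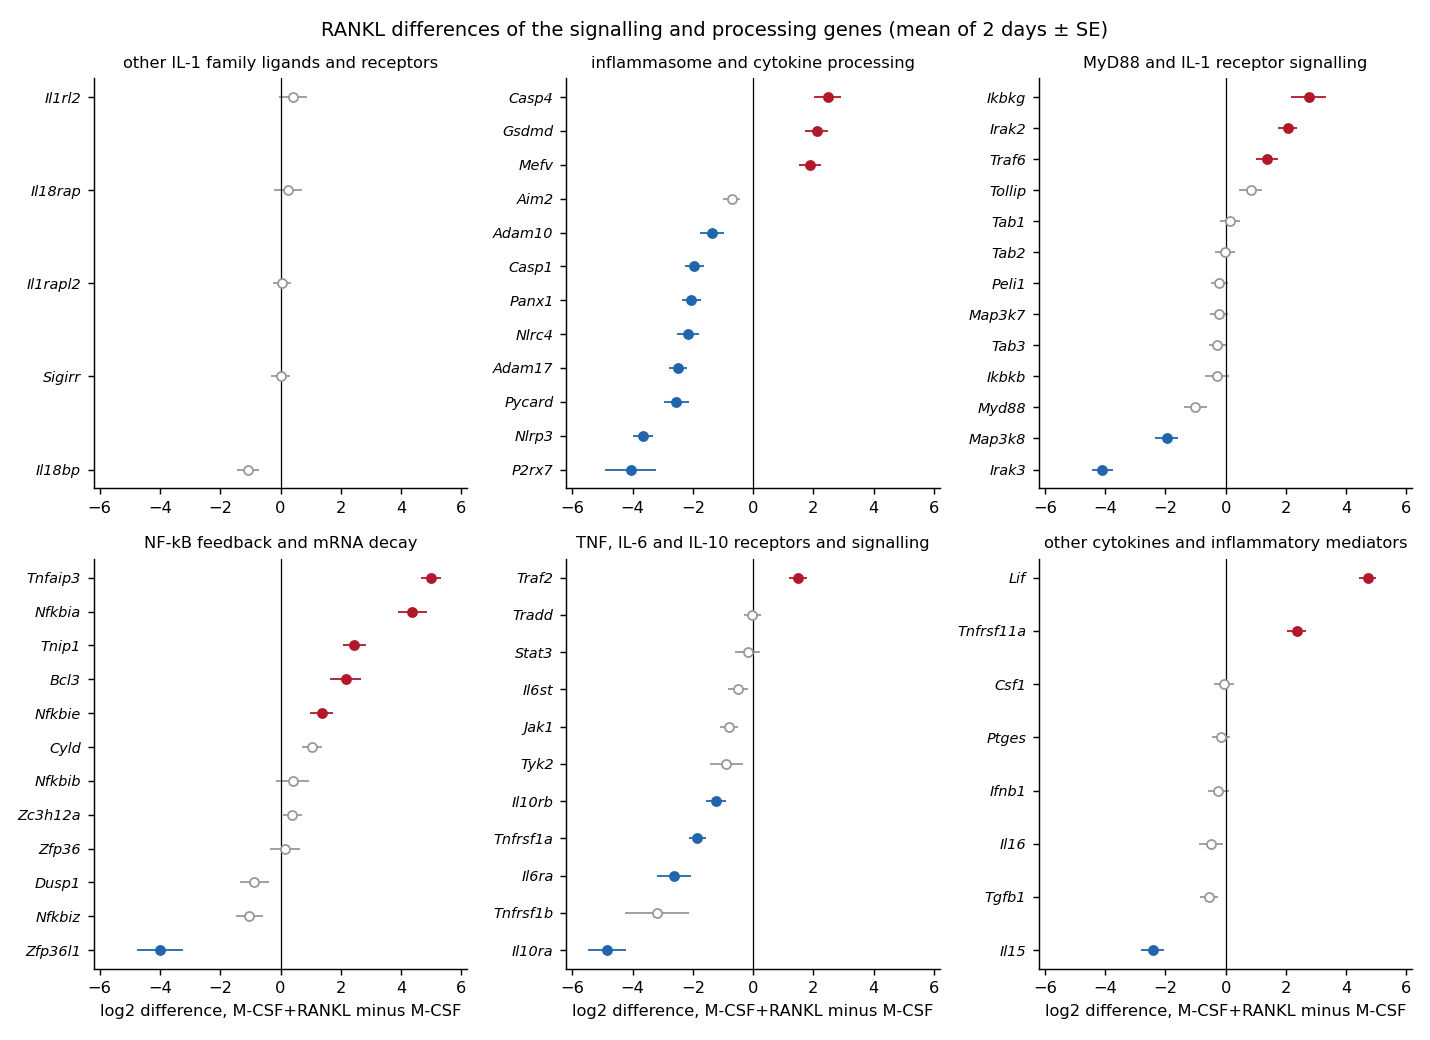
Difference of M-CSF+RANKL minus M-CSF in log2 units (horizontal axis), averaged over both days with its SE as bars, for the 61 tested genes of the 6 lists. Red and blue mark genes higher and lower by limma at an adjusted p under 0.05, and open grey points did not pass; of the inflammasome list 8 of 12 genes are blue, and of the NF-kB feedback list 5 of 12 are red and 6 grey.

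In the list of MyD88 and IL-1 receptor signalling genes, 3 of 13 tested rose, 2 fell and 8 did not pass (median -0.20). Irak2, a kinase-like signal carrier below IL-1 receptors, rose 4.16-fold (2.06 ± 0.31). Ikbkg, the regulatory subunit of the IkB kinase, rose at least 4.2-fold (2.75), and Traf6, a ubiquitin ligase shared by IL-1 receptors and RANK, rose by 1.37. Irak3, a brake on that pathway found in macrophages, fell 17.1-fold (-4.10 ± 0.34), and the kinase gene Map3k8 passed downward (-1.95) with a signal above background on the M-CSF array of day 6 only. Myd88, the adaptor itself, did not pass (-1.0, adjusted p = 0.0855 by limma).

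Of 12 genes of NF-kB feedback and mRNA decay, 5 rose, 1 fell and 6 did not pass (median 0.72). Tnfaip3, a ubiquitin-editing brake on NF-kB, went from 7.57 and 7.23 in M-CSF to 12.63 and 12.15 in M-CSF+RANKL, a 31.7-fold rise (4.99 ± 0.32, adjusted p = 3.96e-05 by limma). Nfkbia, which encodes the inhibitor IkB alpha, rose 20.8-fold (4.38), Tnip1, whose product binds that of Tnfaip3, 5.43-fold (2.44) and Bcl3 4.47-fold (2.16). Nfkbie, named after its value was seen, rose at least 1.39-fold (1.37) from M-CSF signals within background. Zfp36l1, which promotes decay of cytokine mRNAs, fell 16-fold as a mean of both days (-4.00), with differences of -2.20 on day 3 and -5.80 on day 6.

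Of 11 tested genes of TNF, IL-6 and IL-10 receptors and signalling, 4 fell, 1 rose and 6 did not pass (median -0.89). Il10ra, the ligand-binding chain of the IL-10 receptor, went from 8.97 and 11.97 in M-CSF to 5.52 and 5.75 in M-CSF+RANKL, a fall of at least 24.1-fold (-4.84 ± 0.63). Its partner Il10rb fell (-1.23), as did the IL-6 receptor chain Il6ra (-2.62, 6.16-fold) and the TNF receptor gene Tnfrsf1a (-1.85, 3.62-fold), while Traf2, an adaptor of TNF receptors, rose by 1.49. The differences on days 3 and 6 were -3.46 and -6.22 for Il10ra and -1.68 and -3.56 for Il6ra. The shared IL-6 chain Il6st did not pass (-0.49, adjusted p = 0.338). Tnfrsf1b, the second TNF receptor, did not pass either (-3.18 ± 1.06, adjusted p = 0.0625 by limma), with signals of 7.82 on day 3 and 12.42 on day 6 in M-CSF and 6.91 to 7.44 on the arrays with RANKL. Its RANKL difference changed between days by -4.64 ± 0.43 (adjusted p = 4.66e-05 by limma), opposite in sign to that of Tnf.

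None of the 5 tested genes among the other IL-1 family ligands and receptors passed by limma, with 1 at an unadjusted p under 0.05. That gene was Il18bp, the secreted inhibitor of IL-18 (-1.08, adjusted p = 0.0652), within background on all 8 arrays. The IL-18 receptor chain Il18r1 was too dim to be tested, and Il18rap did not pass (0.24, adjusted p = 0.746). Of 8 tested other cytokines and mediators, Lif, of the IL-6 family, rose at least 6.41-fold (4.71), and Tnfrsf11a, which encodes RANK, rose 5.13-fold (2.36). Il15 fell (-2.41, at least 4.17-fold), and the other 5 did not pass.

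The remaining comparisons asked whether wild-type or mutant PSS1 altered these genes in cells with RANKL. By limma none of the 6 tested cytokine and receptor genes passed for PSS1-WT against M-CSF+RANKL, for PSS1-LMS against M-CSF+RANKL, or for PSS1-LMS against PSS1-WT. At an unadjusted p under 0.05 by limma there were 3, 2 and 1 of the 6, and 746, 714 and 773 of all 10871 genes tested. At an adjusted p under 0.05, 0.0092%, 0.175% and 0% of all genes tested were called in these comparisons. The second of these shares was 0.156% higher and 0.0184% lower. The first 2 share their M-CSF+RANKL arrays.

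Il1r1 differed from M-CSF+RANKL in both PSS1 cultures by mean values below 0, -0.99 ± 0.36 in PSS1-WT (adjusted p = 0.655 by limma) and -1.23 ± 0.36 in PSS1-LMS (adjusted p = 0.359). The gap came from day 6, when the differences were -2.00 and -1.88, against 0.03 and -0.58 on day 3. With the day 3 array of M-CSF+RANKL left out both passed (-1.82, adjusted p = 0.0027, and -2.06, adjusted p = 0.00042), in fits where the lone M-CSF+RANKL array was assumed to vary like the PSS1 cultures, and with that of day 6 left out the differences were -0.15 and -0.39. PSS1-WT against M-CSF+RANKL also passed without the PSS1-WT array of day 3 (-1.68, adjusted p = 0.0295). PSS1-LMS against M-CSF+RANKL passed without either PSS1-WT array (-1.23, adjusted p = 0.0178).

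Il1rap was 1.17 ± 0.29 higher in PSS1-LMS than in PSS1-WT (adjusted p = 0.303 by limma), with signals of 6.10 and 5.05 against 4.41 and 4.40 that lay within background except the first. That difference passed without either M-CSF+RANKL array (adjusted p = 0.0231) or the PSS1-LMS array of day 6 (1.71, adjusted p = 0.0452). Il1rn differed by -0.30 in PSS1-WT and by 0.15 in PSS1-LMS from M-CSF+RANKL, with 95% half-widths of 0.609 on both, unadjusted. For Tnf the differences were -0.65 and -0.20 with a half-width of 0.553, for Il18 -0.28 and -0.55 with 0.555, and for Il10 0.24 and 0.72 with 0.533. On all 6 arrays with RANKL the signals of Il18 and Il10 lay within background, so their differences do not count as measured. These intervals are wide, so the data do not show that the cultures are alike in these genes.

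**Figure D5:**
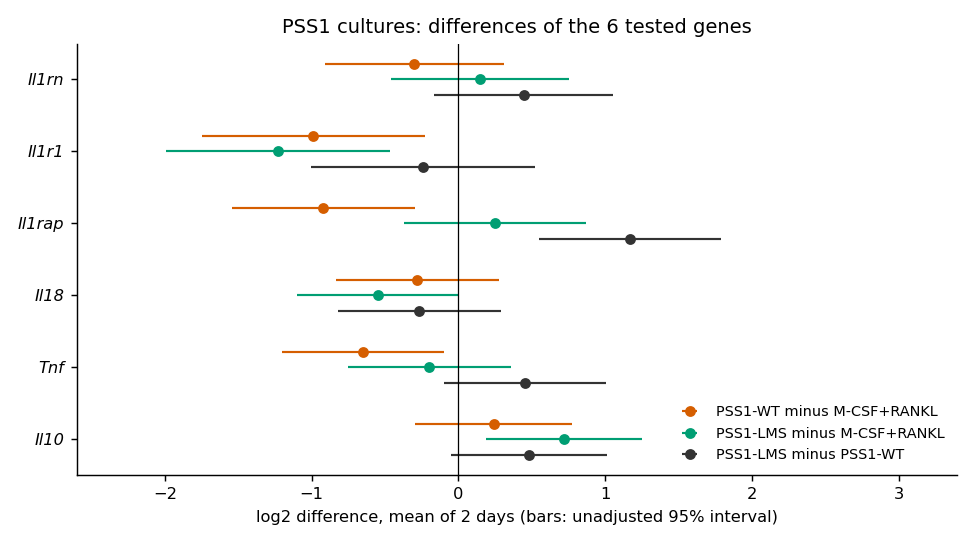
Log2 difference between cultures with RANKL (horizontal axis), averaged over days 3 and 6, for the 6 tested genes, with unadjusted 95% intervals from the limma fit. The intervals of Il1r1 in both PSS1 cultures, Il1rap and Tnf in PSS1-WT, Il10 in PSS1-LMS and Il1rap between the PSS1 cultures lie to one side of 0, and none passed adjustment over 10871 genes. On the arrays with RANKL, Il18 and Il10 lay within background throughout, and Il1rap did except on the PSS1-LMS array of day 3.

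Among the arrays with RANKL, no cytokine or receptor gene of the 10 passed for a change from day 3 to day 6 by limma. In that comparison 3.38% of all genes tested were called at an adjusted p under 0.05 (1.31% higher and 2.07% lower). An unadjusted p under 0.05 was reached by 1844 of all 10871 genes tested, and by 1 of the 6 tested cytokine and receptor genes. That gene was Il1r1, at 0.76 ± 0.29 (adjusted p = 0.189), which was 1.88 higher on day 6 in M-CSF+RANKL, 0.57 higher in PSS1-LMS and -0.16 in PSS1-WT. Without either PSS1-WT array it passed (1.22, adjusted p = 0.00617). Il1rn went by 0.47 in M-CSF+RANKL, -0.58 in PSS1-WT and -0.52 in PSS1-LMS between the days.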

How the data were processed

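The authors deposited 1 table of log2 signals, with 28846 features, of which 22142 are transcript clusters, for 8 Affymetrix arrays. That the deposited values are log2 was read from the values. The summarisation, normalization and their tools are not given in the sources used here. Biotinylated cDNA was made from total RNA, per the labels' protocols. Array medians lay between 4.80 and 4.93, and the values were used as deposited. Genes were named through the platform annotation, with the cluster of highest mean per gene. Genes whose highest signal reached 4.86 were tested with limma 3.58.1 in R 4.3.3 (lmFit, eBayes). Culture and day were additive terms over 8 arrays for RANKL and over the 6 arrays with RANKL for PSS1 and day. A RANKL by day term was fitted over 8 arrays. P-values were adjusted by Benjamini-Hochberg over 10871 genes. The members, gene lists and tests were chosen with earlier results of these data known. Named genes were all members, fixed partners, and at most the 4 list members with the largest called difference per direction. Folds against signals within background are given as "at least". The number of arrays limits the precision. The scripts were tested on simulated data with independent normal noise. There the RANKL test recovered 76% of 4-fold and 4% of 2-fold changes, and the RANKL by day test 78% and 7%. With all 3 cultures with RANKL the shares were 98% and 32%. The PSS1 and day tests recovered 100% of 4-fold and 63% to 89% of 2-fold changes. A gene that did not pass is therefore not shown to be unchanged. Alternatives were other filters, centring, quantile normalization, a floor at background, a variance trend, and leaving out each array. A limit and a floor at the second-brightest background probe set were added after the data were seen.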

Additional observations from a re-analysis of the deposited data

Results flagged for a closer look

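The difference made by RANKL was not the same on days 3 and 6 for 3 of the cytokine genes, by the limma test of that change. For Tnf the difference was 4.19 log2 units higher on day 6 than on day 3. The M-CSF array of day 3 alone stood apart in Tnf, and the test could not be fitted without it. For Il1rn it was 1.58 higher on day 6, a call that 7 of 14 alternatives did not keep. For Il10 it was -2.01, with every signal within the background limits of its array.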

How the results depend on the processing

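Of 569 recomputed values of the 6 tested genes, 515 kept their direction and side of the threshold, 15 lost a call, 16 gained one and 23 changed sign, none of these called in the report. Il1rn (5.82 to 7.40) and Il18 (-4.57 to -2.03) passed for RANKL in all 16 settings. The number of genes called for RANKL, 2875, ranged from 1198 to 4545 when single arrays were left out. For day with RANKL, 367 became 230 with no filter, 42 and 32 with signals floored at the brightest and second-brightest background probe set, and 270 to 731 with arrays left out. For PSS1-WT, 1 became 2 with a filter at background and 2 with a variance trend, and 4 to 88 with arrays left out. For PSS1-LMS, 19 became 2 with no filter, 37 with a filter at background, 1 with quantile normalization, 1 with either floor, 43 with a trend, and 10 to 90 with arrays left out. For PSS1-LMS against PSS1-WT, 0 became 8 with a filter at background and 7 with a trend, and 0 to 55 with arrays left out. The cause was not tested. The sign of the Tnf day difference turned with centring (-0.029), quantile normalization (-0.0030) and a floor at the brightest set (-0.049). With arrays left out, values that changed sign lay, for RANKL, between -4.06 and 0.14 for Tnf and between -1.94 and 0.065 for Il10 (-1.62 to 0.38 over 3 cultures), and for RANKL by day between -0.14 and 0.86 for Il1r1. For day they lay between -0.14 and 0.23 (Tnf), -0.21 and 0.0061 (Il10), -0.030 and 0.32 (Il18), and -0.53 and 0.046 (Il1rap). For PSS1-WT the Il1rn range was -0.81 to 0.21. For PSS1-LMS the ranges were -0.37 to 0.66 (Il1rn), -0.30 to 0.79 (Il1rap) and -0.47 to 0.074 (Tnf), and between the PSS1 cultures -0.93 to 0.45 (Il1r1) and -0.59 to 0.053 (Il18). The Tnf call over 3 cultures was also lost with the day 3 array of M-CSF+RANKL left out and under both floors (adjusted p of 0.0542, 0.0729 and 0.0703 by limma). RANKL by day could not be fitted without an M-CSF array, and floors left some genes with no spread and no value. A group or arm left with 1 array was assumed to vary like the others in the fit. Each group holds 1 array, so no replicate number pairs the arrays, and day was a term in every fit.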

Other observations

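Of the 61 tested partner genes, 2 rose and 3 fell from day 3 to day 6 on the arrays with RANKL by limma, where 1.31% of all genes tested were called higher and 2.07% lower. Csf1, which encodes M-CSF itself, rose by 1.99 ± 0.20 (adjusted p = 2.24e-05), from signals of 6.82 to 6.95 on day 3 to 8.74 to 9.12 on day 6. Dusp1, a phosphatase that ends MAP kinase signalling, rose by 1.40, from 8.94 to 9.57 on day 3 to 10.05 to 10.90 on day 6. The receptor gene Il1rl2, of the IL-36 branch of the family, passed downward (-1.47) with a signal above background on the PSS1-LMS array of day 3 only. Ikbkg fell by 1.03. The mRNA decay gene Zfp36 fell by 0.78. In M-CSF alone Csf1 was at 7.27 on day 3 and 8.56 on day 6, and Dusp1 at 10.85 and 10.70.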
